A study of Mus musculus with 6 samples.

Results

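Imprinted genes are transcribed mainly from the copy inherited from 1 parent. The 10 imprinted genes described here are Ube3a, Snrpn, Ndn, Magel2, Peg3, Igf2r, Meg3, Dlk1, H19 and Igf2, all with known roles in brain or growth. They were taken as a list of names and not picked by a value measured here, though earlier results of these data were known. Each of the 10 was found in the annotation of mouse build mm9, which holds 37273 genes on the chromosomes used. For each gene, reads were counted over the gene body (from first TSS to last TTS) and over the promoter (the 5 kb upstream of the TSS). Reads from the 2 parental copies could not be separated, so each value is the sum of the active and the silent copy.

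Imprinting is set in the germ line, where a control region in each imprinted cluster is methylated on the DNA of 1 parental copy, and the factor ZFP57 helps to keep that methylation in the embryo. Within a cluster the unmethylated control region can act as the promoter of a long noncoding RNA that silences its neighbours in cis, as Airn does for Igf2r, or as a CTCF-bound boundary, as upstream of H19. Acetylation of lysine 5 of histone H4 (H4K5ac) marks transcribed chromatin, and in a bulk sample both parental copies of a gene are read together. Igf2r is read from the maternal copy in most tissues but is known to be read from both copies in neurons. In neurons the paternal Ube3a copy is silenced by a long antisense transcript, and loss of the maternal copy causes Angelman syndrome, while loss of paternal Snrpn, Ndn and Magel2 is tied to Prader-Willi syndrome.

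The libraries came from hippocampus of mice aged 6 months, labelled C57/BL6 and given in the methods as C57Bl6/J males. Fear-conditioned mice (FC) were trained with a foot shock in an unfamiliar context on each of 2 days, and context-only controls (CON) were exposed to the context without shock. Tissue was taken 1 h after a memory test on day 3. For each group there was 1 library of chromatin precipitated with an H4K5ac antibody (H4K5ac-ChIP), 1 mock library precipitated with IgG (IgG-IP) and 1 library of genomic DNA without precipitation (input). The methods describe 3 hippocampal samples per group that were cross-linked separately. Whether a library holds 1 of these or a pool is not given in the sources used here. With 1 library per group and antibody, no spread between animals is known, no difference here has a replicate check, and a bulk library cannot tell fewer acetylated cells from less acetylation per cell.

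The H4K5ac-ChIP libraries held 31605738 (FC) and 35962226 (CON) aligned reads, the IgG-IP libraries 14549689 and 16491741, and the input libraries 45673239 and 35493806. Read density is given as RPKM, the reads per kilobase and per 1000000 aligned reads of that library. Brackets hold 95% intervals, exact Poisson for a density and exact binomial (Clopper-Pearson) for a ratio of densities, and they cover counting error only. Annotated neuronal genes (7 of the 8 listed) had a median gene-body H4K5ac density of 0.728 RPKM in FC and 0.699 in CON, the 4 genes of hippocampal neurons 0.680 and 0.621, and 8 genes of tissues outside the brain 0.395 and 0.346. Medians were 0.546 and 0.538 for 7 genes of choroid plexus and meninges, 0.644 and 0.679 for 4 of astrocytes, 0.690 and 0.583 for 4 of oligodendrocytes, and 0.623 and 0.609 for 4 of microglia. The tissue was mixed, and no value of an imprinted gene was assigned to a cell type.

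The genes lie in clusters on chromosomes 7, 12 and 17. Ube3a (ENSMUSG00000025326.7), an E3 ubiquitin ligase, covers 78.0 kb of the plus strand at chr7:66484122-66562097. Snrpn (ENSMUSG00000000948.9), whose protein belongs to the spliceosome, is annotated over 158 kb of the minus strand at chr7:67127388-67285105. Ndn (ENSMUSG00000033585.4) and Magel2 (ENSMUSG00000056972.5), intronless genes of the MAGE family, lie farther along at chr7:69493163-69494814 and chr7:69521865-69526526, both on the plus strand. Near the other end of the chromosome H19 (ENSMUSG00000000031.9), a noncoding RNA, lies at chr7:149761434-149764048 and Igf2 (ENSMUSG00000048583.9), a fetal growth factor, at chr7:149836673-149852721, both on the minus strand. Peg3 (ENSMUSG00000002265.8), a zinc finger protein needed for maternal behaviour, lies at chr7:6656603-6683132 on the minus strand. Dlk1 (ENSMUSG00000040856.11), a membrane protein related to Notch ligands, and Meg3 (ENSMUSG00000021268.10), a noncoding RNA, lie on the plus strand at chr12:110691033-110701546 and chr12:110779211-110809936. Igf2r (ENSMUSG00000023830.7), the receptor that clears IGF2, lies at chr17:12875272-12962530 on the minus strand. Reads were not assigned by strand, so Igf2r cannot be told apart from Airn over the shared part, nor Igf2 from Igf2as, nor Meg3 from the gene annotated as Gm17639 and the miRNA genes within it; 67.5% of the Igf2r body, 55.2% of the Igf2 body and 89.4% of the Meg3 body overlapped no other gene. The Igf2r promoter also overlapped Airn and a gene annotated as 7SK, and the Igf2 promoter overlapped Igf2as.

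The start regions of these genes differ in their bases. This bears on the values below because read density followed base composition in H4K5ac-ChIP and FC input, and less so in the other libraries. The mm9 sequences that follow run from 250 bp upstream to 50 bp downstream of a TSS, 5′ to 3′ on the strand of the gene, with each CpG in capitals. Ube3a (chr7:66483872-66484171, plus strand) and Igf2r (chr17:12962481-12962780, minus strand) are the members with the highest H4K5ac density within 1 kb of the TSS in both groups, and hold 29 and 33 CpG in 300 bp. Magel2 (chr7:69521615-69521914, plus strand), with 10 CpG, had the lowest H4K5ac-to-IgG ratio of the 10 promoters. Snrpn has an outer annotated TSS (chr7:67285056-67285355, minus strand) with 3 CpG and an inner start of transcript Snrpn-201 (chr7:67149993-67150292, minus strand) with 12.
Ube3a: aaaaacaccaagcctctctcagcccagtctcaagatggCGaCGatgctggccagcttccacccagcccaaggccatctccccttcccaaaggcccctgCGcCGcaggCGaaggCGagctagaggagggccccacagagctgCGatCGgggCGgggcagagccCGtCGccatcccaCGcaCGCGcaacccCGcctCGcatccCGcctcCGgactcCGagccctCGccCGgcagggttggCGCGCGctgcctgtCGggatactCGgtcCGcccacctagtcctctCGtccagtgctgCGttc
Igf2r: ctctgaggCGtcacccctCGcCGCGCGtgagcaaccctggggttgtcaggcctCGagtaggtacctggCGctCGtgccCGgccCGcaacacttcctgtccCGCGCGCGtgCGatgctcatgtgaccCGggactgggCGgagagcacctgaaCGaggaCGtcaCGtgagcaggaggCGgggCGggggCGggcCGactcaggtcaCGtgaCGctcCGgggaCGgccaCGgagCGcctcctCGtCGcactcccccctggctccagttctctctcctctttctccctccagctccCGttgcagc
Magel2: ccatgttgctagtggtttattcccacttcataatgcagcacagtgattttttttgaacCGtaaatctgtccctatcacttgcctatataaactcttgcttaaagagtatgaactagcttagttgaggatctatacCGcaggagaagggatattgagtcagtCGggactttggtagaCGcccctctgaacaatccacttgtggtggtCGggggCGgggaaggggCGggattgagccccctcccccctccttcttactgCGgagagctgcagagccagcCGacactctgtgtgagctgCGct
Snrpn outer TSS: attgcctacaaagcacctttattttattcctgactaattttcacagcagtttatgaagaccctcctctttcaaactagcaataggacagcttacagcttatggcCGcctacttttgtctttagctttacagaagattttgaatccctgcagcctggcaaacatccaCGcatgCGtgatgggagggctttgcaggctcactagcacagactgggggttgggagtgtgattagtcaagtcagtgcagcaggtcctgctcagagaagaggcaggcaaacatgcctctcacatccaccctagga
Snrpn-201: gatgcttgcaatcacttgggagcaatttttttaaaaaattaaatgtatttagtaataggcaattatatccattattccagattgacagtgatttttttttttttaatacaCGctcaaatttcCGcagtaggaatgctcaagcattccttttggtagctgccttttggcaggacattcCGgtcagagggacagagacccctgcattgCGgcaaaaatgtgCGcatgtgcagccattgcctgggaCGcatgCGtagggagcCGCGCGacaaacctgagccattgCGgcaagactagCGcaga
GC content of these 300 bp was 69.0% at Ube3a and 70.0% at Igf2r against 51.0% at Magel2, 47.7% at the outer and 44.7% at the inner start of Snrpn. CpG count and density did not go together at every start. Peg3, whose start is not printed, holds 13 CpG at 61.3% GC in the same span. Its H4K5ac density within 1 kb of the TSS was 0.316 (FC) and 0.209 RPKM (CON). The outer Snrpn TSS had 0.380 and 0.264. The promoters of 5 kb, which give the counts below, were poorer in GC, at 36.4% to 37.4% for Magel2, Ube3a, Ndn and Snrpn, 42.4% for Peg3, 45.7% for Igf2r and 48.0% to 51.0% for Meg3, Igf2, H19 and Dlk1.

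Most of the imprinted genes had less H4K5ac over the gene body than the typical gene. The median H4K5ac density of the 10 genes was 0.361 RPKM in FC and 0.342 in CON, where the median of 25622 genes of at least 1 kb was 0.554 and 0.546. Igf2r was the exception in both groups, with 0.721 RPKM (0.690 to 0.753, 1988 reads) in FC and 0.732 (0.702 to 0.762, 2296 reads) in CON, above 71.3% and 75.5% of the genes of at least 1 kb. The 3 lowest in both groups were Igf2, with 0.195 RPKM (0.159 to 0.238) in FC and 0.229 (0.191 to 0.271) in CON, Snrpn, with 0.215 (0.202 to 0.228) and 0.204 (0.193 to 0.216), and Magel2, with 0.271 (0.194 to 0.370) and 0.221 (0.155 to 0.304). Igf2 was the lowest in FC and Snrpn in CON, and neighbours among the 3 had overlapping intervals in both groups.

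In FC the order from high to low was Igf2r, Meg3, Peg3, Ndn, Ube3a, H19, Dlk1, Magel2, Snrpn and Igf2, and in CON it was Igf2r, Peg3, Ube3a, Meg3, Ndn, H19, Dlk1, Igf2, Magel2 and Snrpn. In FC the intervals of neighbours in this order overlapped except between Igf2r and Meg3. In CON they overlapped except between Igf2r and Peg3 and between Ube3a and Meg3. Ndn, with 20 reads in FC and 23 in CON over 1.65 kb, and H19, with 29 and 28 reads over 2.62 kb, had intervals so wide that their places are not resolved at this depth.

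**Figure D1:**
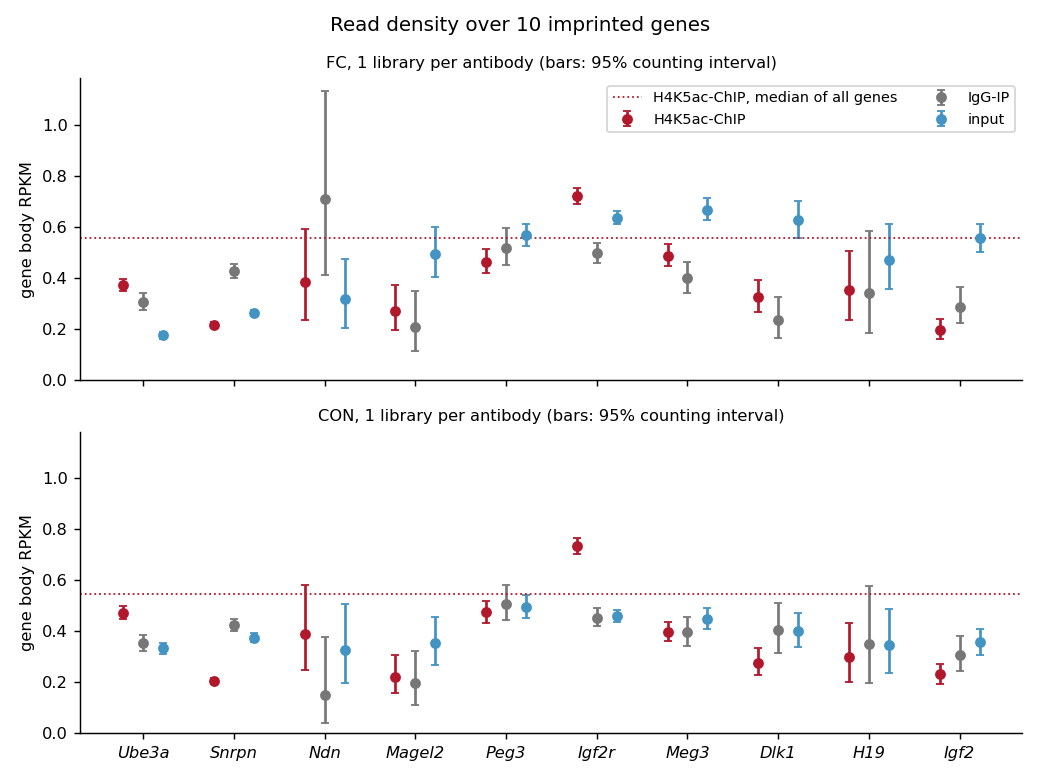
Gene-body read density in RPKM (vertical axis) of the 10 imprinted genes in the 6 libraries, FC above and CON below, with bars for the 95% Poisson interval of each single library and a dotted line at the H4K5ac-ChIP median of all genes of at least 1 kb. Igf2r is the gene whose H4K5ac point lies above the dotted line in both groups (0.721 and 0.732 RPKM), and at Snrpn the IgG-IP point (0.425 and 0.422 RPKM) lies above the H4K5ac point (0.215 and 0.204).

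Against the mock precipitation, the imprinted gene bodies were not enriched as a group. H4K5ac-ChIP was called over a control at a gene when its density was at least 2-fold that of the control (log2 ratio of at least 1) and the pair of libraries held at least 20 reads, which each of the 10 genes did in each comparison. Over IgG-IP in FC, 0 of the 10 bodies were called, where 33.6% of all genes tested were. The median log2 ratio of the 10 was 0.16, where that of all genes was 0.69, and 0 of the 10 lay above the median of all genes. Over IgG-IP in CON, 1 of 10 was called where the background was 25.5%, and the median was -0.05 where all genes had 0.59. The gene called was Ndn, whose log2 ratio of 1.40 (-0.15 to 3.39) came from 23 H4K5ac-ChIP and 4 IgG-IP reads and has an interval that holds 0.

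Over input, the called gene was another one. In FC 1 of 10 bodies was called where the background was 5.08%, namely Ube3a at a log2 ratio of 1.09 (0.94 to 1.24), higher than in 96.3% of all genes. In CON 0 of 10 were called where the background was 15.3%, and Ube3a had 0.51 (0.39 to 0.63), higher than in 53.5% of all genes. Input density at the Ube3a body was 0.175 RPKM in FC and 0.331 in CON. Over IgG-IP the ratio of this body was higher than in 32.2% (FC) and 40.9% (CON) of all genes. The median of the 10 over input was -0.35 in FC and -0.19 in CON, where all genes had 0.16 and 0.45.

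Snrpn and Igf2 were the bodies with intervals below 0 against both controls in both groups. For Snrpn the log2 ratio over IgG-IP came to -0.98 (-1.11 to -0.86) for FC and to -1.05 (-1.17 to -0.93) for CON, and over input -0.28 (-0.39 to -0.17) and -0.87 (-0.97 to -0.77). For Igf2 the ratios over IgG-IP were -0.56 (-1.02 to -0.086) and -0.42 (-0.83 to -0.0028), and over input -1.50 (-1.84 to -1.18) and -0.63 (-0.96 to -0.31). Over the part of Igf2 free of other genes, the ratio over IgG-IP in CON was 0.28, with the direction turned, and the other 3 ratios stayed below 0. Igf2r and Ube3a were above 0 in each of these comparisons. Igf2r was at 0.54 (0.41 to 0.67) and 0.70 (0.57 to 0.82) over IgG-IP and 0.18 (0.098 to 0.27) and 0.68 (0.58 to 0.77) over input, and Ube3a at 0.28 (0.10 to 0.46) and 0.42 (0.27 to 0.58) over IgG-IP.

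Promoters gave more calls in FC than bodies did. Over IgG-IP in FC 5 of 10 promoters were called where the background was 30.4%, and in CON 1 of 10 where it was 24.6%. The 5 were H19 at 1.51 (0.74 to 2.37), Dlk1 at 1.31 (0.51 to 2.22), Igf2r at 1.19 (0.52 to 1.92), Igf2 at 1.09 (0.30 to 1.97) and Ube3a at 1.05 (0.37 to 1.79). Reads at the Igf2r and Igf2 promoters cannot be told apart from those of the genes that overlap them. Ube3a, at 1.45 (0.76 to 2.21), was also the one called in CON. With 1 read per position and strand 3 of the 10 promoters were called over IgG-IP in FC, where 26.9% of all promoters were. Centred on genes of the same GC content 2 were, where 10.8% of all were. These were Ube3a (2.17) and Snrpn (1.27), which was not among the 5, while H19 (0.38), Dlk1 (0.19), Igf2r (0.47) and Igf2 (-0.038) were no longer called. The FC IgG-IP library was thin at these promoters, with 15 reads at Dlk1, 16 at H19, 16 at Igf2 and 22 at Igf2r, and its density relative to that of CON IgG-IP had a median log2 ratio of -0.56 over the 10 promoters where all genes had -0.056; the part of this in the calls was not tested.

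Over input, 1 of 10 promoters was called in FC, again Ube3a, where the background was 7.95%, and 0 of 10 in CON where it was 16.3%. The Ube3a promoter held 99 H4K5ac-ChIP, 22 IgG-IP and 45 input reads in FC and 119, 20 and 68 in CON. Its log2 ratio over input stood at 1.67 (1.15 to 2.21) in FC, higher than at 99.7% of all promoters, and 0.79 (0.35 to 1.24) in CON, higher than at 73.6%. Input density at this promoter was 0.197 RPKM in FC and 0.383 in CON. Magel2 was at the other end with 18, 33 and 54 reads in FC and 23, 52 and 92 in CON. Its promoter ratio over IgG-IP came to -1.99 (-2.91 to -1.12) for FC and to -2.30 (-3.08 to -1.57) for CON, lower than at all but 5.83% and 4.33% of promoters. The neighbouring Ndn promoter, at -1.17 (-1.96 to -0.38) and -1.43 (-2.13 to -0.74), was below 0 as well. Centred on genes of the same GC content, Magel2 was at -0.67 and -1.01 and Ndn at -0.049 and -0.39.

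The study took promoters with over 50 H4K5ac-ChIP reads as above its average, but the promoter counts here differ from its own, and most promoters exceeded this number. Of the members, 7 of 10 genes passed in FC where 65.0% of all genes did, and 6 of 10 in CON where 68.1% did. Igf2r (109 and 104 reads), H19 (99 and 102), Ube3a (99 and 119), Dlk1 (81 and 69), Igf2 (74 and 66) and Meg3 (60 and 63) passed in both groups. Peg3, with 59 reads in FC and 47 in CON, passed in FC. Snrpn (29 and 30), Ndn (29 and 34) and Magel2 (18 and 23) were below 50 in both. Set against promoters of the same GC content (36.4% to 37.4%), their H4K5ac density was 1.26 and 1.11 times the median at Snrpn, 1.26 and 1.26 times at Ndn, and 0.818 and 0.885 times at Magel2. With promoters of 2 kb, 2 of 10 held over 50 reads in FC and 2 of 10 in CON, where 27.8% and 32.4% of all did.

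**Figure D2:**
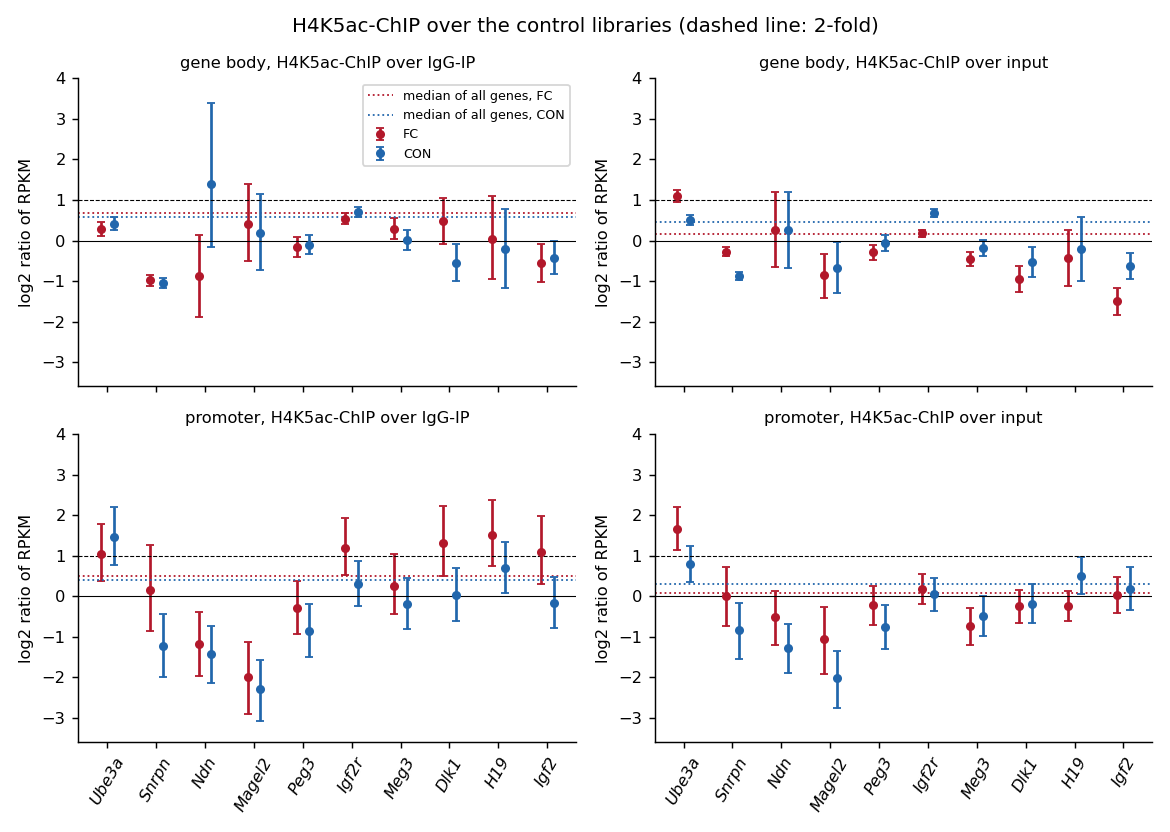
Log2 ratios with IgG-IP (left) or input (right) as the control of H4K5ac-ChIP, for gene bodies (top) and promoters of 5 kb (bottom) of the 10 imprinted genes, FC in red and CON in blue, with 95% binomial intervals of the counts, dotted lines at the median of all genes and a dashed line at 2-fold. Ube3a sits above the median of all genes in both promoter panels, up to 1.67 over input in FC, and Magel2 reaches -2.30 over IgG-IP in CON.

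H4K5ac-ChIP density went with base composition, and the order of the list changed when each gene was set against genes of its own GC content. In H4K5ac-ChIP, genes poor in GC had low density: the 66 genes whose body has the GC content of Ube3a (33.9%, in steps of 1%) had a median of 0.0964 RPKM in FC and 0.0994 in CON, and the 656 genes at the 37.1% of Snrpn had 0.239 and 0.262. The 1430 genes at the 48.0% of Igf2r had 0.619 and 0.593. Ube3a, with 0.371 and 0.471 RPKM, was therefore at 3.85 and 4.74 times the median of genes of its own GC content, while in IgG-IP it was at 0.838 and 0.994 times and in input at 1.03 and 0.979 times. The controls differed in this. At 33.9%, 37.1% and 48.0% GC the IgG-IP medians were 0.365, 0.385 and 0.363 RPKM in FC and 0.354, 0.388 and 0.385 in CON. The input medians were 0.169, 0.267 and 0.601 in FC and 0.339, 0.384 and 0.434 in CON.

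No other member came near this. Igf2r was at 1.16 (FC) and 1.23 (CON) times the H4K5ac median of genes of its GC content, with IgG-IP at 1.37 and 1.17 times and input at 1.06 and 1.05 times. For H4K5ac, Snrpn was at 0.899 and 0.781, and Peg3 at 0.851 and 0.889. Meg3 was at 0.689 and 0.603 times, Ndn at 0.492 and 0.556, H19 at 0.438 and 0.423, Dlk1 at 0.429 and 0.394, Magel2 at 0.354 and 0.325 and Igf2 at 0.251 and 0.328. Centred on genes of the same GC content, the log2 ratio of the Snrpn body stayed below 0, at -0.54 in FC and -0.71 in CON over IgG-IP and at -0.31 and -0.44 over input. Igf2, Magel2, Dlk1 and H19, with bodies of 53.5% to 57.6% GC, had less than 0.5 times the density of their GC class in both groups. After this centring the log2 ratio of the Ube3a body was 2.24 in FC and 2.21 in CON over IgG-IP, and 1.87 and 2.25 over input, so that Ube3a was past 2-fold in each of these comparisons and the other 9 genes in none. After the same centring 4.64% (FC) and 3.92% (CON) of all bodies were past 2-fold over IgG-IP, and 2.87% and 2.86% over input.

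**Figure D3:**
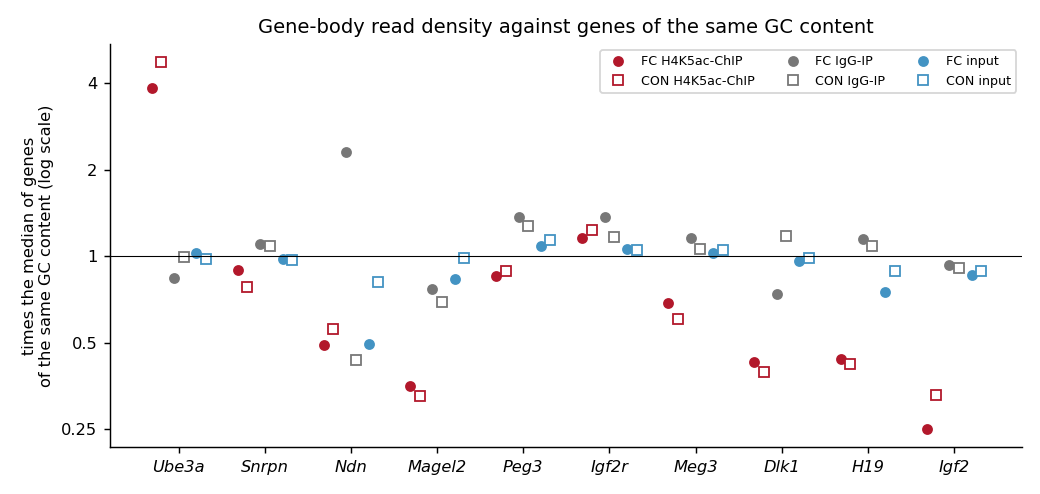
Gene-body density of each imprinted gene divided by the median density of genes of the same GC content in the same library (vertical axis, log scale), filled for FC and open for CON, with H4K5ac-ChIP in red, IgG-IP in grey and input in blue. The H4K5ac points of Ube3a stand at 3.85 and 4.74 while its control points stay between 0.838 and 1.03, and those of Igf2 are at 0.251 and 0.328.

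Ube3a carried its H4K5ac at the start and along the body. Within 1 kb of the TSS it held 65 H4K5ac-ChIP, 3 IgG-IP and 38 input reads in FC and 76, 9 and 23 in CON. The H4K5ac density there was 1.03 RPKM in FC and 1.06 in CON, above 84.9% and 91.2% of all genes, whose medians were 0.522 and 0.473. The log2 ratio over IgG-IP came to 3.32 (1.71 to 5.63) for FC and to 1.95 (0.95 to 3.14) for CON, and over input 1.31 (0.71 to 1.92) and 1.71 (1.02 to 2.45). The densest 500 bp within 5 kb of the TSS were those from 1000 to 500 bp upstream in both groups, where the H4K5ac-ChIP libraries held 29 (FC) and 35 (CON) reads and IgG-IP 1 and 4. These bases lie upstream of the CpG island of 1200 bp at chr7:66483901-66485100, which is centred 379 bp downstream of the TSS and held 26 and 28 H4K5ac-ChIP reads (0.686 and 0.649 RPKM). Over 13821 such islands the median was 0.512 RPKM in FC and 0.360 in CON.

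Ube3a was densest in its middle when the body was cut into 3 equal parts. Its H4K5ac density was 0.467 RPKM in FC and 0.613 in CON, where the 5′ part had 0.410 and 0.445 and the 3′ part 0.240 and 0.356. Over IgG-IP the log2 ratios of the parts lay between 0.23 and 0.34 in FC and between 0.35 and 0.49 in CON, and over input between 0.98 and 1.17 in FC and between 0.30 and 0.64 in CON. Each part thus had the direction of the whole body. Over IgG-IP in FC, however, the intervals of the 5′ part (-0.062 to 0.53) and the 3′ part (-0.15 to 0.64) held 0. The other intervals of the parts lay above 0. Over IgG-IP each part was below the median of all gene bodies, 0.69 in FC and 0.59 in CON. The 565 kb between Ube3a and Snrpn, through which the antisense transcript runs, had 0.107 RPKM in FC and 0.118 in CON, with 0.174 and 0.178 in IgG-IP; 8.85% of its bases are undetermined in mm9, which lowers every density given for it.

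The Snrpn annotation joins a long upstream part to the part that codes for the protein. The 22.7 kb from the inner start to the end of the gene had 0.260 RPKM of H4K5ac in FC and 0.259 in CON, and the 135 kb upstream of it 0.208 and 0.195. From the inner start to the end, the log2 ratio over input was -0.069 (-0.34 to 0.20) in FC, an interval that held 0, and -0.60 (-0.86 to -0.35) in CON, and over IgG-IP -0.68 and -0.85, with intervals below 0. Within 1 kb of the inner start there were 30 H4K5ac-ChIP, 13 IgG-IP and 38 input reads in FC and 38, 12 and 29 in CON, and within 1 kb of the outer TSS 24, 4 and 25 in FC and 19, 23 and 30 in CON. The density at the inner start, 0.475 and 0.528 RPKM, was close to the median of all genes at their TSS, and its log2 ratios over IgG-IP of 0.087 (-0.90 to 1.15) and 0.54 (-0.43 to 1.61) had intervals that held 0. The inner start, which lies in the germ-line control region of the Prader-Willi cluster, therefore showed no enrichment detectable at this depth. This comparison was chosen after the data were seen.

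Ndn and Magel2, single-exon genes of the same region, were short and sparse. The Magel2 body held 40 H4K5ac-ChIP, 14 IgG-IP and 105 input reads in FC and 37, 15 and 58 in CON. Its log2 ratio over IgG-IP was 0.40 (-0.51 to 1.39) and 0.18 (-0.72 to 1.15), and over input -0.86 (-1.42 to -0.32) and -0.67 (-1.30 to -0.048). The Ndn body held 20, 17 and 24 reads in FC and 23, 4 and 19 in CON, so that the H4K5ac-ChIP reads were close and the IgG-IP reads were not. The 27.1 kb between the genes had 0.157 and 0.144 RPKM of H4K5ac with log2 ratios of -1.56 (-1.89 to -1.23) and -1.85 (-2.17 to -1.54) over IgG-IP, lower than at either gene body. Mkrn3, another imprinted gene of the region, held 19 and 25 H4K5ac-ChIP reads (0.235 and 0.271 RPKM).

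Peg3 is the member with the most copies of a motif near its start. Of the 3 motifs searched on both strands within 5 kb of each TSS, CGCCATNTT (the YY1 motif) matched 11 times at Peg3, where 0.0429% of all genes had as many and the mean was 0.187 per gene. TGCCGC (the hexamer of ZFP57) matched 8 times, where 0.488% of genes had as many. Of the YY1 matches, 10 lay 824 to 3112 bp downstream of the TSS on the strand of the gene, at a median spacing of 141 bp (49 to 603 bp). The 4 shown are printed with 11 bases of mm9 on each side, on the minus strand of the genome and with the match in capitals, to show how alike the copies are.
Peg3 at chr7:6682300-6682308: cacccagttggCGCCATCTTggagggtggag
Peg3 at chr7:6681591-6681599: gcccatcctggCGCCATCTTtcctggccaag
Peg3 at chr7:6681450-6681458: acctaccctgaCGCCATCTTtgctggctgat
Peg3 at chr7:6680012-6680020: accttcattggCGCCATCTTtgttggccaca
TGCCGC and CGCCATNTT can share bases where the first runs into the second. A match is a description of the letters and no sign of a bound factor.

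The stretch of 2297 bp that holds the 10 matches had 32 H4K5ac-ChIP, 17 IgG-IP and 55 input reads in FC and 40, 25 and 24 in CON, or 0.441 and 0.484 RPKM of H4K5ac. Its log2 ratio over IgG-IP came to -0.21 (-1.10 to 0.73) for FC and to -0.45 (-1.20 to 0.34) for CON, with intervals that held 0. The densest 500 bp around the Peg3 TSS, 1000 to 1500 bp downstream in both groups, lie in this stretch and held 13 and 17 H4K5ac-ChIP reads with 2 and 8 IgG-IP reads. Over the whole body Peg3 held 388, 200 and 686 reads in FC and 451, 222 and 465 in CON. Its log2 ratio over IgG-IP was -0.16 (-0.41 to 0.09) and -0.10 (-0.34 to 0.14), so its H4K5ac could not be told from the mock level. The neighbours Zim1 and Usp29 had 0.411 and 0.303 RPKM in FC and 0.347 and 0.277 in CON.

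Igf2r had the highest body density, and it was spread over the gene. Cut into 3 equal parts, it had from 5′ to 3′ 0.810, 0.699 and 0.654 RPKM of H4K5ac in FC and 0.719, 0.810 and 0.666 in CON. The 28.4 kb that Airn overlaps had 0.819 and 0.723 RPKM and the 58.9 kb that it does not overlap 0.674 and 0.736. The log2 ratio over IgG-IP of the part without Airn was 0.47 (0.30 to 0.63) in FC, where the median of all genes was 0.69, and 0.68 (0.52 to 0.83) in CON, where it was 0.59. Centred on genes of the same GC content, the whole Igf2r body was at -0.30 in FC, with the direction turned, and 0.026 in CON over IgG-IP. Over input in FC, the part that Airn overlaps had a log2 ratio of 0.50 (0.35 to 0.65) and the part without Airn 0.027 (-0.079 to 0.13), a split chosen after the data were seen. In CON the same parts had 0.75 (0.58 to 0.92) and 0.65 (0.53 to 0.76), with overlapping intervals.

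The starts of Igf2r and Airn had few IgG-IP reads, so the ratios there are imprecise. Within 1 kb of the Igf2r TSS there were 60 H4K5ac-ChIP, 8 IgG-IP and 50 input reads in FC and 49, 14 and 32 in CON, or 0.949 and 0.681 RPKM. The log2 ratio over IgG-IP came to 1.79 (0.72 to 3.06) in FC, and 0.68 (-0.20 to 1.65) in CON, where the interval held 0. The CpG island at this TSS had 2.34 (0.32 to 5.47) in FC and 0.25 (-1.33 to 2.09) in CON over IgG-IP, and 0.53 (-0.39 to 1.45) and -0.32 (-1.49 to 0.83) over input. The 500 bp just downstream of the TSS were nearly empty, with 3 and 0 H4K5ac-ChIP, 2 and 3 IgG-IP and 6 and 1 input reads, between bins of 13 to 18 H4K5ac-ChIP reads on either side. The CpG island at the start of Airn (chr17:12934201-12935450), the germ-line control region in an Igf2r intron, held 32 H4K5ac-ChIP, 2 IgG-IP and 32 input reads in FC and 34, 5 and 20 in CON. Its log2 ratio over IgG-IP came to 2.88 (0.91 to 5.99) for FC and to 1.64 (0.28 to 3.35) for CON, and over input 0.53 (-0.22 to 1.28) and 0.75 (-0.092 to 1.62). IgG-IP was low at CpG islands in general, with medians of 0.125 RPKM in FC and 0.121 in CON. Within 1 kb of the Airn start, the window used at the other starts, the ratio over IgG-IP was 0.72 (-0.23 to 1.78) and 0.46 (-0.41 to 1.41), and both intervals held 0. The 90.5 kb of Airn outside Igf2r had 0.529 and 0.520 RPKM. The bases around the Airn start (chr17:12933927-12934226, plus strand) hold 3 CpG in 300 bp, since the island begins at the start and runs downstream.
Airn: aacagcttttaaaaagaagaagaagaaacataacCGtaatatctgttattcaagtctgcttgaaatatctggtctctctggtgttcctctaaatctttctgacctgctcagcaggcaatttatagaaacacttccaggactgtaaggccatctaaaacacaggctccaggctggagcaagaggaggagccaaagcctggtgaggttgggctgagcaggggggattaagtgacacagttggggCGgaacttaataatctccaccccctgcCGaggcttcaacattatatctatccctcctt

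**Figure D4:**
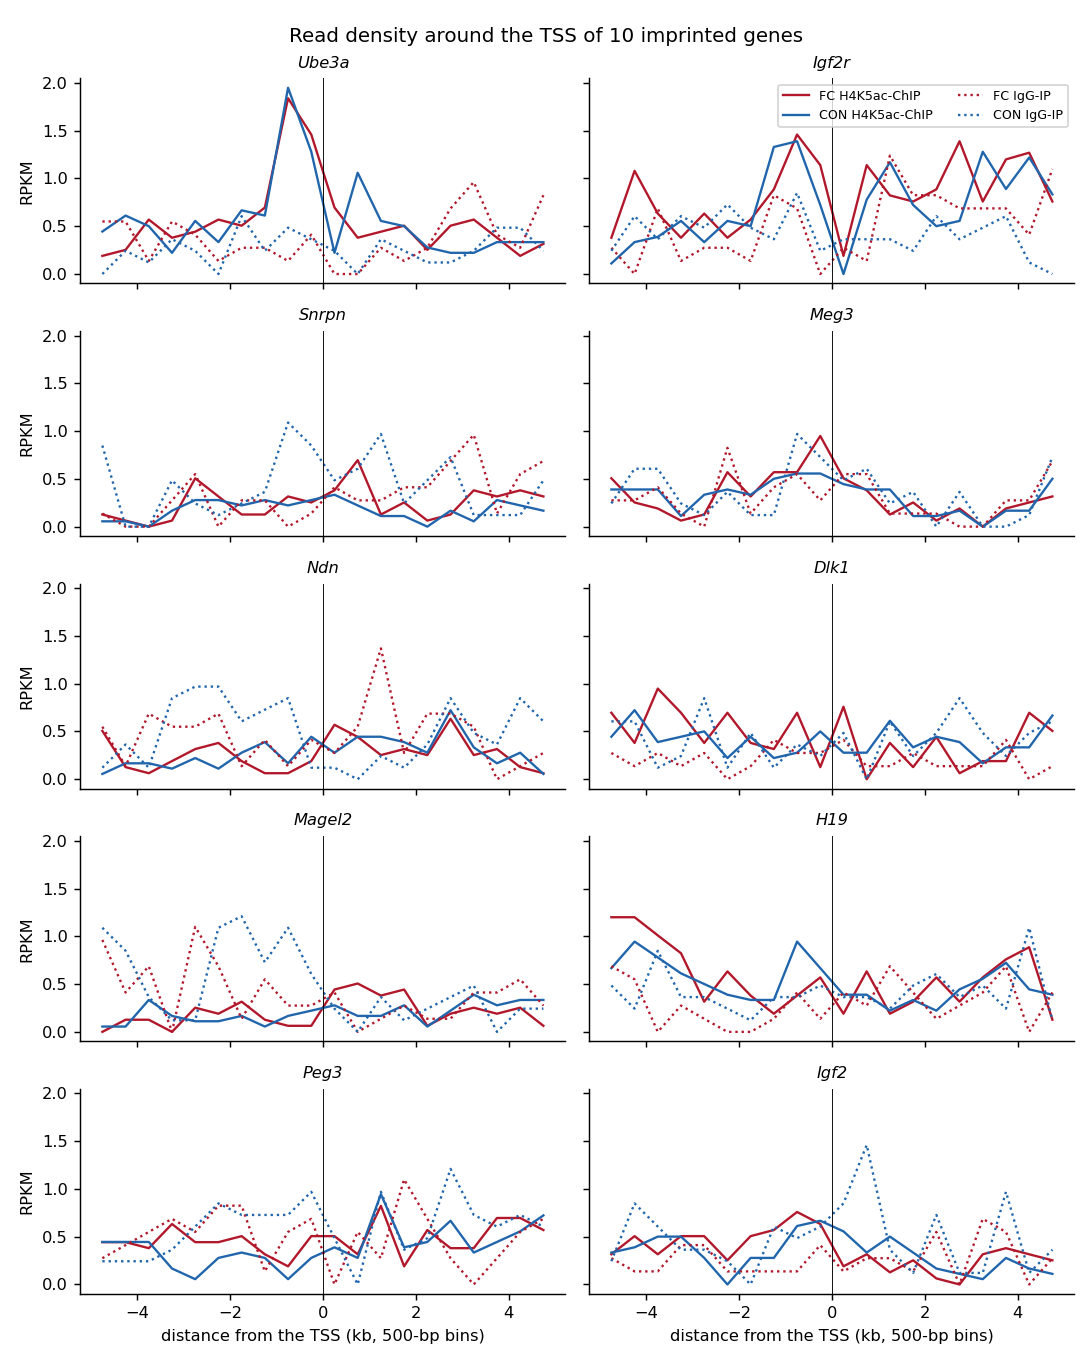
Read density in RPKM (vertical axis) in bins of 500 bp within 5 kb of the annotated TSS of the 10 imprinted genes, H4K5ac-ChIP as solid and IgG-IP as dotted lines, FC in red and CON in blue, 1 library each. The peak of Ube3a from 1000 to 500 bp upstream is present in both H4K5ac libraries (1.84 and 1.95 RPKM) and in neither IgG-IP library. That of Igf2r in the same bin reaches 1.46 and 1.39. The H4K5ac profiles of all other members stay under the peaks of Ube3a and Igf2r.

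In the Dlk1 and Meg3 cluster, the middle was the densest of 3 equal parts of the Meg3 body. The Meg3 body held 473 H4K5ac-ChIP, 178 IgG-IP and 936 input reads in FC and 437, 200 and 488 in CON. Of 3 equal parts the middle had 0.695 RPKM of H4K5ac in FC and 0.502 in CON, the 5′ part 0.312 and 0.301 and the 3′ part 0.463 and 0.386. The middle was also the part of Meg3 whose ratio over IgG-IP was highest, at 0.72 (0.31 to 1.14) in FC and 0.34 (-0.07 to 0.77) in CON. Dlk1, the paternally expressed neighbour, held 108, 36 and 300 reads in FC and 104, 70 and 149 in CON. Its ratio over IgG-IP came to 0.47 (-0.091 to 1.05) for FC and to -0.55 (-1.0 to -0.095) for CON, where the IgG-IP reads rather than the H4K5ac-ChIP reads differed, and over input it was -0.94 (-1.27 to -0.62) and -0.54 (-0.91 to -0.17). The 77.7 kb between them had 0.374 and 0.312 RPKM. Downstream of Meg3, Rian had 0.368 and 0.325 RPKM and Mirg 0.571 and 0.430, both noncoding RNAs read from the maternal copy, and Rtl1, read from the paternal copy, had 0.361 and 0.397.

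Upstream of H19 the density was highest in the part farthest from the gene. The fourth and the fifth kilobase upstream of the TSS held 29 and 37 reads of H4K5ac-ChIP (FC) and 24 and 29 (CON), the second and the third kilobase 8 and 15 in FC and 12 and 15 in CON, and the first 15 and 26. Densities in the fourth and the fifth kilobase were 0.918 and 1.17 RPKM in FC and 0.667 and 0.806 in CON. In IgG-IP the same kilobases held 2 and 8 reads in FC and 9 and 5 in CON, and in input 38 and 36 in FC and 16 and 14 in CON. The log2 ratio of the fifth kilobase over IgG-IP came to 1.09 (-0.035 to 2.40) for FC and to 1.41 (0.026 to 3.14) for CON, and over input 0.57 (-0.13 to 1.27) and 1.03 (0.065 to 2.07). The fourth kilobase had 2.74 (0.76 to 5.85) and 0.29 (-0.87 to 1.58) over IgG-IP. Over input it had 0.14 (-0.61 to 0.88) and 0.57 (-0.41 to 1.58). In CON the first kilobase had 1.10 (0.059 to 2.22) over input, above the fifth.

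The control region between H19 and Igf2 is known for its CTCF sites. GGNGGCAG, the end of the CTCF core motif, matched 9 times within 5 kb of the H19 TSS, where 5.88% of genes had as many, and 3 of the 9 lie downstream of the TSS. Other members had similar counts, with 10 matches at Igf2 (3.24% of genes had as many) and 8 each at Meg3 and Magel2 (9.76%). In the H19 window TGCCGC matched 6 times, where 2.05% had as many. The 4 matches shown lie 3898, 3654, 2628 and 2173 bp upstream of the TSS on the strand of H19 (minus strand of mm9). They are printed with 11 bases on each side and the match in capitals because they share the letters around the match.
H19 at chr7:149767939-149767946: agttgccgcgtGGTGGCAGcaaaatcgatt
H19 at chr7:149767695-149767702: ggttgccgcacGGCGGCAGtgaagtctcgt
H19 at chr7:149766669-149766676: tgctaccgcgcGGTGGCAGcatactcctat
H19 at chr7:149766214-149766221: cgatgccgcgtGGTGGCAGtacaatactac
In the match 3654 bp upstream, GGNGGCAG overlaps TGCCGC read on the other strand. Of the other upstream matches, the one at 3773 bp has other flanking letters and is not printed. The third kilobase, which holds the matches at 2628 and 2173 bp, had 15 H4K5ac-ChIP reads in each group, and the matches at 3898, 3773 and 3654 bp lie in the fourth kilobase.

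H19 and Igf2 themselves were sparse. The H19 body held 29 H4K5ac-ChIP, 13 IgG-IP and 56 input reads in FC and 28, 15 and 32 in CON, with ratios over IgG-IP of 0.038 (-0.95 to 1.11) and -0.22 (-1.18 to 0.79). The Igf2 body held 99, 67 and 406 reads in FC and 132, 81 and 202 in CON. Its 3 CpG islands, centred 2696, 5896 and 7696 bp downstream of the annotated TSS, held 1, 3 and 9 reads of H4K5ac-ChIP (FC) and 3, 2 and 12 (CON). The densities of 0.0487 to 0.173 RPKM in FC and 0.0585 to 0.202 in CON were below the median of all islands and below that of the Ube3a island in each case. Ins2, whose annotation begins beyond Igf2, had 0.370 and 0.353 RPKM, and the 72.6 kb between H19 and Igf2 had 0.437 and 0.409.

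Between FC and CON no member passed the fold in H4K5ac-ChIP over its body or its promoter of 5 kb unless a control ratio was subtracted. With promoters of 2 kb, Ndn (8 reads in FC and 22 in CON) was past the fold toward lower values in FC. With a call at 1.5-fold or more, 0 of 10 bodies were higher in FC where 4.53% of all genes were, and 0 of 10 were lower where 1.96% were. Of the promoters, 0 of 10 were higher where 5.52% of all promoters were, and 0 of 10 were lower where 3.82% were. At shares this low a list of 10 genes would hold few calls or none, so these counts are not particular to imprinted genes. The median log2 ratio of FC over CON was 0.029 over the bodies and 0.14 over the promoters, where all genes had 0.043 and 0.046. Less the ratio of the input libraries, 4 promoters were higher in FC and 1 lower, where 11.8% and 18.5% of all promoters were. Less that of the IgG-IP libraries, 5 were higher and 0 lower, where 19.4% and 11.1% were. For the bodies either subtraction gave 1 higher and 1 lower, where 5.38% and 17.6% of all bodies were less the input ratio and 10.2% and 3.61% less the IgG-IP ratio. The values compare 2 libraries and not the conditions.

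Ube3a and Meg3 were the bodies whose ratio had an interval that left out 0. For Ube3a, with 0.371 RPKM in FC and 0.471 in CON, the log2 ratio of FC over CON was -0.34 (-0.47 to -0.22), lower than in all but 5.17% of genes. It was -0.12 (-0.33 to 0.09) in the 5′ part of the gene, -0.39 (-0.58 to -0.20) in the middle and -0.57 (-0.83 to -0.31) in the 3′ part, and at the promoter -0.079 (-0.48 to 0.32). The input of the same gene had -0.92 (-1.07 to -0.78) and IgG-IP -0.20 (-0.41 to 0.0044). Less the input ratio the Ube3a value was 0.58, with the direction turned, less the IgG-IP ratio it was -0.14, and centred on genes of the same GC content it was -0.34.

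For Meg3, with 0.487 RPKM in FC and 0.395 in CON, the log2 ratio was 0.30 (0.11 to 0.49), and 0.47 (0.18 to 0.76) in its middle part. Its input had 0.58 (0.42 to 0.74) and its IgG-IP 0.013 (-0.29 to 0.31). Less the input ratio the Meg3 value was -0.28, again with the direction turned, less the IgG-IP ratio it was 0.29, and against genes of the same GC content 0.19. Neither direction held under each scaling, and no direction between FC and CON is given for these genes.

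The other bodies had intervals that held 0. Igf2r was the best measured of them at -0.022 (-0.11 to 0.066), an interval that leaves out a difference of 1.5-fold in either direction between these 2 libraries, and Snrpn followed at 0.074 (-0.047 to 0.19) and Peg3 at -0.031 (-0.23 to 0.17). At Ndn (-0.96 to 0.91) the reads allow differences of 1.5-fold or more on both sides, at H19 (-0.56 to 1.04), Magel2 (-0.38 to 0.98) and Dlk1 (-0.16 to 0.64) toward higher values in FC, and at Igf2 (-0.62 to 0.16) toward higher values in CON. Parts of a body could differ from the whole. The part of Igf2r that Airn overlaps had 0.18 (0.031 to 0.33) and the part without Airn -0.13 (-0.24 to -0.021). That split was chosen after the data were seen. The 3′ part of Dlk1 had 1.05 (0.15 to 2.00), from 31 reads in FC and 17 in CON. The 5′ and middle parts of Dlk1 had intervals that held 0. Among promoters Peg3 had the largest ratio, 0.51 (-0.063 to 1.10), from 59 reads in FC and 47 in CON.

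**Figure D5:**
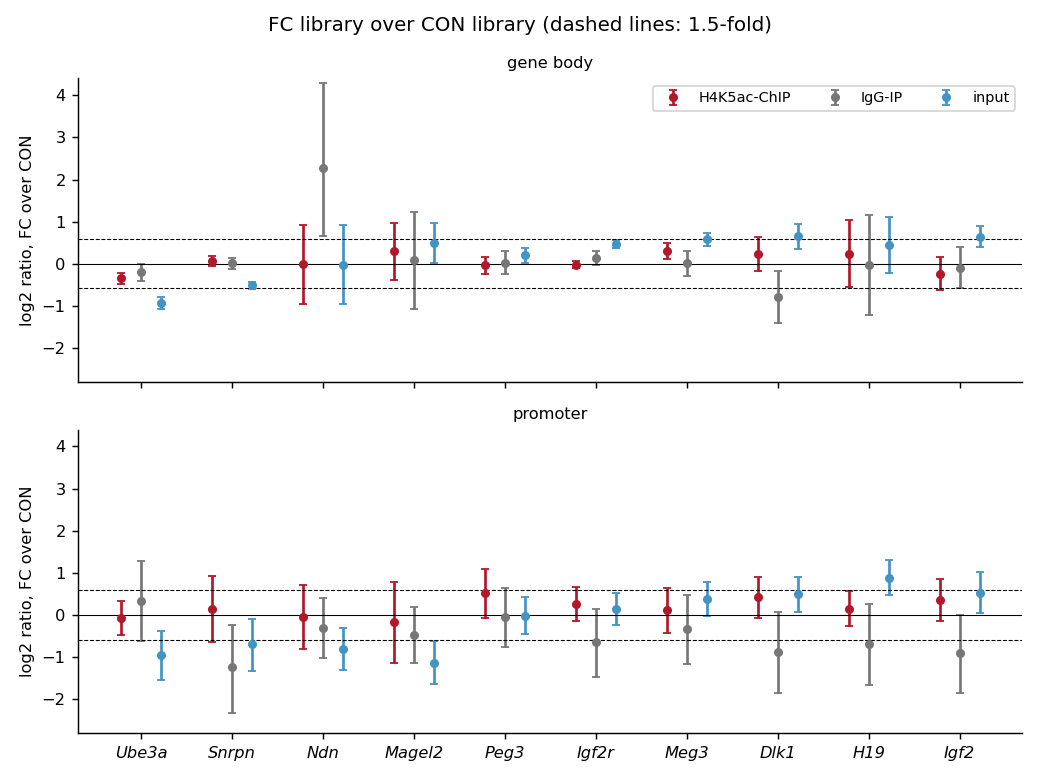
Log2 ratio of the FC library over the CON library (vertical axis) for H4K5ac-ChIP (red), IgG-IP (grey) and input (blue) at the gene bodies (top) and promoters (bottom) of the 10 imprinted genes, with 95% binomial intervals of the counts and dashed lines at 1.5-fold. The red points stay between the dashed lines, from -0.34 at the Ube3a body to 0.51 at the Peg3 promoter, while input ranges from -1.13 at the Magel2 promoter to 0.88 at the H19 promoter.

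Grouped by the copy that is known to be expressed, the 4 maternally expressed members (Ube3a in neurons, Igf2r outside them, Meg3 and H19) had higher medians than the 6 paternally expressed ones (Snrpn, Ndn, Magel2, Peg3, Dlk1 and Igf2) in both groups. The median body log2 ratio over IgG-IP was 0.29 for maternal and -0.36 for paternal members in FC, and 0.21 and -0.26 in CON. At promoters it was 1.12 and -0.064 in FC and 0.49 and -1.04 in CON. Over input the body medians were -0.12 and -0.58 in FC and 0.16 and -0.59 in CON. The promoter medians over input were -0.031 and -0.23 in FC and 0.28 and -0.79 in CON. None of these medians is centred on GC content. After centring, promoter ratios over input in FC ran from -0.95 (Meg3) to 2.21 (Ube3a) for maternal members. For paternal members they ran from -0.49 (Dlk1) to 0.54 (Snrpn). In CON they ran from -1.13 (Meg3) to 1.85 (Ube3a) and from -0.92 (Peg3) to 0.22 (Snrpn), so the ranges overlapped. Between these ends in FC lay H19 (-0.47) and Igf2r (-0.045), and paternal members from -0.42 (Magel2) to 0.026 (Ndn). After centring, the maternal members were thus not higher as a group in FC. In CON H19 (-0.21) and Igf2r (-0.42) lay between the ends, and paternal members from -0.89 (Dlk1) to -0.21 (Ndn). The counts of 4 and 6 genes are given as a description, the same libraries stand behind both, and Igf2r and Ube3a, the longest maternally expressed members, have most of the reads.

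A wider list of 47 other imprinted genes had a median body density between those of the 10 members and of all genes of at least 1 kb. Of these, 42 were in the annotation, and Zim2, Zim3, Kcnq1ot1, Frat3 and Peg13 were not found under these names. The median body density of the 42 was 0.462 RPKM in FC (0.135 to 1.13 over the genes) and 0.454 in CON (0.143 to 1.07). The list holds Airn, which shares reads with Igf2r. Over IgG-IP their median log2 ratio came to 0.26 (FC) and 0.14 (CON), with 6 of 42 genes past 2-fold in each group, where 33.6% and 25.5% of all genes were. At promoters 4 of 42 (FC) and 7 of 42 (CON) were past 2-fold over IgG-IP, where 30.4% and 24.6% of all were. Between FC and CON, 0 of 42 bodies were past 1.5-fold in either direction, where 4.53% of all were higher and 1.96% lower, and the median ratio was 0.057.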

How the data were processed

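The authors sequenced the libraries on a SOLiD platform, aligned the reads to mm9 with Bioscope and deposited 1 BED line per aligned read. The deposited score is the mapping quality that the authors' aligner gave, between 4 and 100. It is neither a count nor a coverage, and no normalization was applied. The methods let a read be reported at several places, so repeated sequence can hold reads placed more than once. Aligned parts spanned 25 to 50 bp.

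Reads that overlapped a gene body or its promoter by at least 1 bp were counted with Python 3.11.15, NumPy 2.4.6, pandas 2.3.3 and SciPy 1.17.1, and plots were drawn with matplotlib 3.10.9. Gene intervals came from the GENCODE annotation of NCBIM37, the same build as mm9: the farthest read on chromosome 7 had its start coordinate at 152524503 of 152524553 bp. Counts were divided by length and aligned reads to give RPKM. Every read had the same weight, and repeats (11.5% to 17.8% of a library) were kept. GC content was matched in steps of 1%. CpG islands were stretches of at least 500 bp with at least 55% GC and an observed-to-expected CpG ratio of at least 0.65. Sequences were read from the mm9 genome. Counting and intervals were tested on simulated data.

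The named genes are the 10 members and genes that overlap or neighbour them. The members, lists and comparisons were chosen with earlier results of these data known. Groups came from the labels. With 1 library per group and antibody no test across samples was made, and p-values are not given. Alternatives were 1 read per position and strand, a mapping quality of at least 20, the midpoint of the read, bodies without other genes, promoters of 2 kb, centring on GC content, and subtraction of the control ratio. A further 2, parts of Snrpn and of Igf2r, were added after seeing the data.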

Additional observations from a re-analysis of the deposited data

Results flagged for a closer look

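At 7 places the ratio of H4K5ac-ChIP to a control lay on opposite sides of 0 in FC and CON. The difference was not tested at any of them, since each group had 1 library. Over IgG-IP at promoters, Snrpn had a log2 ratio of 0.15 in FC and -1.22 in CON, Meg3 0.26 and -0.19, and Igf2 1.09 and -0.17. Over IgG-IP at gene bodies, Ndn had -0.88 and 1.40, Dlk1 0.47 and -0.55, and H19 0.038 and -0.22. Over input, the H19 promoter had -0.23 in FC and 0.50 in CON. At Ndn the H4K5ac-ChIP reads were 20 and 23 and the IgG-IP reads 17 and 4. At the Snrpn promoter the H4K5ac-ChIP reads were 29 and 30 and the IgG-IP reads 12 and 32. At the H19 promoter the H4K5ac-ChIP reads were 99 and 102 and the input reads 168 and 71.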

How the results depend on the processing

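No paired analysis was possible because each group had 1 library per antibody and no result came from a test. Of the counts of genes past a fold, 62 values under the alternatives listed first in the methods stayed within 1.5 times the reported count and 16 moved; percentages are the shares of all genes called the same way. Centred on genes of the same GC content, the count was 1 for bodies over IgG-IP in FC (4.64% of all genes) and over input in CON (2.86%), 2 for promoters over IgG-IP in FC (10.8%), and 1 for promoters over input in CON (7.72%); Ube3a was among them each time. With 1 read per position and strand, 3 promoters were past 2-fold over IgG-IP in FC (26.9%). With promoters of 2 kb, 1 was past 2-fold over input in CON (28.0%), 1 was lower in FC than in CON (Ndn, -1.27; 7.06%), and 2 in FC (27.8%) and 2 in CON (32.4%) held more than 50 reads. Less the input ratio, 1 body was higher and 1 lower in FC (Snrpn 0.59 and Igf2 -0.87; 5.38% and 17.6%), and 4 promoters were higher and 1 lower (11.8% and 18.5%). Less the IgG-IP ratio, 1 body was higher and 1 lower (Dlk1 1.02 and Ndn -2.28; 10.2% and 3.61%), and 5 promoters were higher (19.4%). Of ratios past a fold, the Igf2 promoter over IgG-IP in FC turned, to -0.038, after centring on GC content. The cause was not tested. Single-gene ratios moved in 95 values and stayed in 444. Here a ratio moved when it left its counting interval. Centring on GC content made up most of the moves, with 56 of 100, and subtracting the input or IgG-IP ratio moved 12 and 9 of 20 each. A mapping quality of at least 20 moved 1, and 1 read per position and the midpoint moved 0. Counting every change of sign, also of ratios near 0, 23 of 100 turned on centring, 13 and 2 of 20 on subtracting input and IgG-IP, 5 of 50 with promoters of 2 kb, 1 of 50 without other genes (Igf2 over IgG-IP in CON), and 7, 8 and 1 of 100 with 1 read per position, a mapping quality of at least 20 and the midpoint. Under the splits of Snrpn and Igf2r 8 moved and 12 stayed. The depth of the IgG-IP libraries, with under 20 reads at 4 FC promoters, limits the ratios of short regions.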
